A study of Mus musculus with 18 samples.

Results

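A stretch of 320 bp inside an intron of Pax5 was examined at single-base resolution in mouse T cells. Its members are the 7 CpG cytosines of the forward strand between chr4:44628612-44628931 (mm9) that had at least 10 reads in every library, out of 64 such CpG cytosines in the whole series. An eighth CpG in the stretch fell below 10 reads in 1 library and is described separately. The members were chosen by position, sequence context and coverage and not by a rule on their unconverted shares, but earlier results of these data were known.

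Pax5 is a transcription factor that establishes and maintains B-cell identity, and it is not part of the normal programme of the T lineage. In vertebrate DNA most CpGs away from active regulatory elements carry 5-methylcytosine (5mC). TET enzymes oxidise 5mC to 5-hydroxymethylcytosine (5hmC), an intermediate on one route back to unmodified cytosine. The stretch was targeted by the study together with regions of Il6ra, Prkcq and Zbtb7b, genes of a cytokine receptor chain, a kinase of T-cell receptor signalling and a regulator of the CD4 lineage choice. The study chose its loci, Pax5 included, as relevant to T-cell development and as places where an antibody-based assay showed changing 5hmC.

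Consecutive stages were sorted from female C57/BL6 mice of 4 to 6 weeks. Double positive (DP) thymocytes were gated as CD4+ and CD8 int/hi. CD4 single positive (SP) thymocytes were gated as CD4CD3 hi and CD24 int/lo. Naive CD4 T cells came from pooled spleen and lymph nodes and were gated as CD4+ CD62L hi CD25- CD44lo. All groups share strain, sex and age, and none was treated. Stage and tissue of origin cannot be told apart in comparisons of thymocytes with naive CD4 cells. No RNA was measured, and the identity of the sorted cells therefore rests on their surface gates.

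Each stage has 3 bisulfite (BS) and 3 oxidative bisulfite (oxBS) libraries, 18 in all, numbered 1 to 3. The study's methods describe isolations from independent mice and a DNA sample divided between both treatments. BS leaves 5mC and 5hmC as C and reads unmodified cytosine as T. In oxBS the 5hmC is oxidised first and is also read as T. The unconverted share is the percentage of reads that kept C at a cytosine. In BS it measures both marks together and in oxBS it measures 5mC, and BS minus oxBS is an estimate of 5hmC.

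Pax5 (ENSMUSG00000014030.9) spans chr4:44544017-44724318 on the reverse strand. In the GENCODE vM1 transcript Pax5-001 the stretch lies in intron 6, which is 35703 bp long, at 29488 bp after exon 6 and 5895 bp before exon 7. Of 16 annotated Pax5 transcripts 14 span the stretch, and no exon of any of them overlaps it. The nearest exon, at chr4:44628432-44628488 and 124 bp away, belongs to Pax5-013, a transcript annotated as subject to nonsense-mediated decay. The cytosines read here are on the forward strand, which is the template strand of the gene.

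The forward sequence of chr4:44628632-44628931 (mm9), with the 8 CpGs in capitals, shows how they are spaced:
Pax5 intron: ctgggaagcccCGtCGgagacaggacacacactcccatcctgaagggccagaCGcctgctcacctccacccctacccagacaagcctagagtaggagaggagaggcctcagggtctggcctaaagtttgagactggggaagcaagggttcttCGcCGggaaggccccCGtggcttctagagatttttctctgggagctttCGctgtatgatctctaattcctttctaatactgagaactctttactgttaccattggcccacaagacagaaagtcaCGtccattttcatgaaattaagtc

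The 7 members are called CpG 1 to CpG 7 here, at 44628643, 44628646, 44628684, 44628787, 44628799, 44628832 and 44628908. CpG 1 and CpG 2 are 3 bp apart. The eighth CpG, at 44628784, lies 3 bp before CpG 4. The windows below show the members on which the results turn, with the measured CpG in capitals:
CpG 1: tgggaagcccCGtcggagacag
CpG 3: aagggccagaCGcctgctcacc
CpG 5: ggaaggccccCGtggcttctag
CpG 6: tgggagctttCGctgtatgatc
CpG 7: cagaaagtcaCGtccattttca

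With 8 CpGs the stretch is denser than most of the gene. Only 10.5% of 563 windows of the same length tiled over Pax5 held as many, and the median window held 4. Its GC content of 53.1% compares with a median of 49.4% over the windows. The observed to expected CpG ratio was 0.356. Both strands were searched for motifs of lymphoid regulators. The Ets core GGAA occurred 4 times, at 44628635, 44628768, 44628789 and 44628849, and is found in 95.4% of the windows. The E-box CANNTG occurred once, at 44628623, against 83.7% of windows with a match. The canonical E-box CACGTG (5.51% of windows), the Runx motif TGTGGT (22.7%) and the palindromic Ebf motif (1.42%) had no match. None of the GGAA or CANNTG matches overlapped a covered CpG.

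Pax5 was covered shallowly and unevenly. The total of reads over all cytosines was 3450894 to 8602209 per library, of which the 7 Pax5 members took 0.00572% to 0.186%. The median depth of a member was 71 to 1514 reads in the BS libraries and 47 to 1444 in the oxBS libraries. Number 1 was the shallowest library of every group. DP oxBS 1, 2 and 3 had median depths of 47, 203 and 55 reads, and at 55 reads a count of 0 allows a share of up to 5.45%. Reads carry no molecular identifiers, so counting intervals and such floors cover counting error only. Outside CpGs, the 79 other cytosines of the stretch that were covered in all libraries had a pooled unconverted share of 0.0933% to 0.32% per library, but 4 of them kept over 3% in at least 1 library. Of these, 2 did so in all 3 libraries of one oxBS group. The cytosine at 44628640, 3 bp from CpG 1, kept 6.82%, 8.17% and 4.84% in DP oxBS and at most 0.858% in the other libraries. The cytosine at 44628652, 6 bp from CpG 2, kept 6.85%, 6.81% and 7.75% in CD4 SP oxBS and at most 0.485% in the others. These shares recur in every library of a group, and they are of the size of the stage difference in mean oxBS share given below. Their part in that difference, and whether the libraries of such a group share template molecules, was not tested. The lambda control made with unmodified cytosine kept 0.0393% to 0.0682% of its C and the 5mC control 99.2% to 99.4%. In the control made with 5hmC nucleotides, which was itself modified at a low level, the mean share was 6.16% in BS and 1.04% in oxBS.

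**Figure D1:**
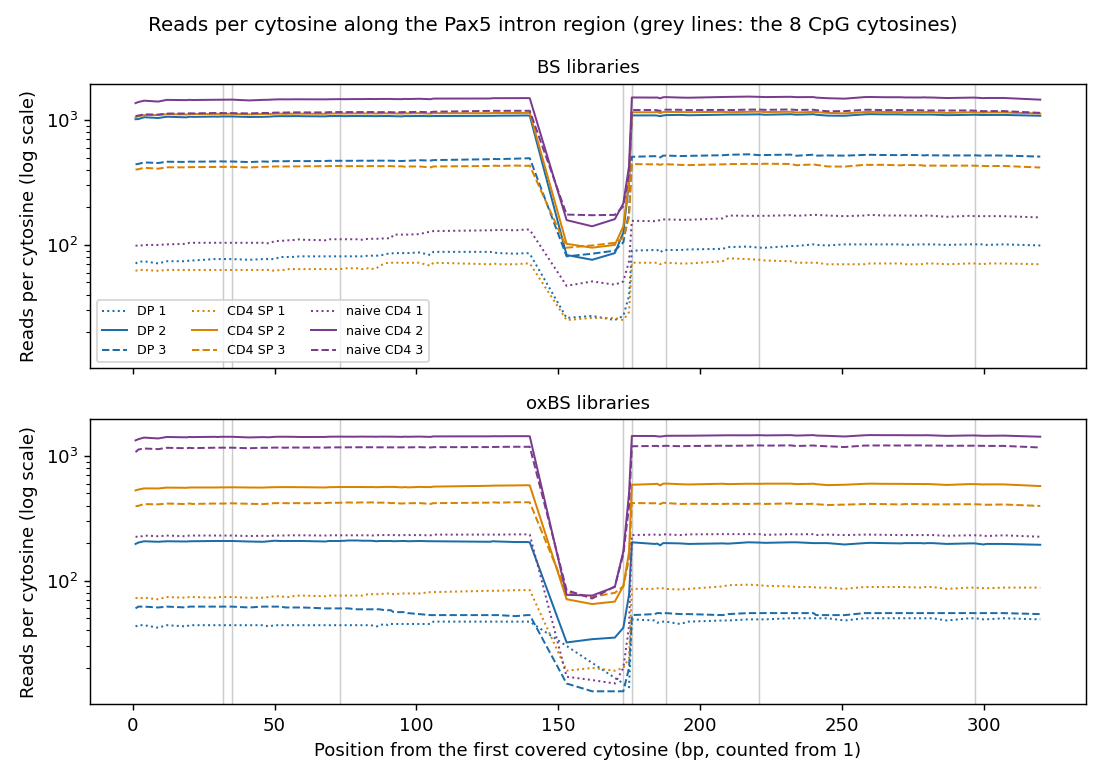
Reads per forward-strand cytosine (log scale) against the position in the stretch in bp, for BS (top) and oxBS (bottom), with 1 line per library coloured by stage and styled by number. Depth falls in a dip that holds the eighth CpG. Elsewhere it is nearly level in the deep libraries, but in some shallow libraries, such as naive CD4 BS 1, it rises along the stretch. The dotted lines of number 1 lie lowest or near lowest in each stage.

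The eighth CpG sits in that dip, where it had 13 to 215 reads, 8.62% to 34.7% of the reads at CpG 4. Its BS share was 88.9%, 93.7% and 90.5% in DP thymocytes, 96.0%, 94.3% and 93.0% in CD4 SP thymocytes and 86.3%, 89.8% and 90.2% in naive CD4 cells. Its oxBS share was 92.9% and 84.6% in DP libraries 2 and 3, and in library 1 it was not analysed here. In CD4 SP its oxBS share was 100% and 98.9% in libraries 2 and 3 and 19 of 20 reads in library 1, and in naive CD4 it was 90.0%, 99.4% and 99.4%. This CpG was thus highly unconverted in every library that covered it, like the members. It enters no test.

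Libraries 2 and 3 of a group resembled each other at Pax5. In all 6 groups their 7 shares differed by no more than sampling noise (chi-square test over the members, p = 0.374 to 0.821). Of the 12 pairs that involve number 1, 6 differed beyond it. The lowest chi-square p was 9.12e-07, between naive CD4 BS libraries 1 and 2. Libraries 2 and 3 of DP BS and of CD4 SP oxBS also agreed within that noise over all 64 CpG cytosines. Their chi-square p was 0.139 and 0.860. The depth at Pax5 did not follow the totals in DP BS 2 and 3, with medians of 1090 and 508 reads for totals of 5226071 and 7696442, so they were kept as separate libraries. Differing depth does not show that they are separate isolations. The tests below treat every library as independent, which was not tested. Results with the DP BS pair and the CD4 SP oxBS pair counted once are given beside those they touch. Libraries 2 and 3 of the remaining groups were not merged. Merging them in every group would leave 2 units per stage, where an exact permutation test among stages cannot go below p = 0.0667.

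All 7 members were highly unconverted in all 3 stages. Over the 9 BS libraries the mean share was lowest at CpG 1, with 75.1% ± 2.37 (SD, n = 9), and highest at CpG 6, with 93.1% ± 2.74 (SD, n = 9). Between them lay CpG 5 (86.1%), CpG 7 (86.5%), CpG 3 (87.4%), CpG 2 (88.5%) and CpG 4 (90.8%). The single lowest share of any member in any library was 71.4%, at CpG 1 in CD4 SP BS 1, which had 63 reads there. In the oxBS libraries the mean was again lowest at CpG 1 (80.4% ± 5.17, SD, n = 9) and highest at CpG 6 (96.3% ± 4.46, SD, n = 9).

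CpG 1 stood below each of the other 6 members in 9 of 9 BS libraries and 9 of 9 oxBS libraries (exact sign-flip test, adjusted p = 0.0109 for each pair). The difference from CpG 2, only 3 bp away and covered by the same reads, was -13.4 ± 3.31 points in BS and -14.8 ± 3.84 points in oxBS (SD, n = 9). Of 21 pairs of members, 12 differed in BS and 13 in oxBS (exact sign-flip test, two-sided, adjusted over 42 tests). Above CpG 1, no neighbours in the order of means differed beyond their spread in either assay, with adjusted exact p from 0.251 to 0.836 in BS and from 0.140 to 0.812 in oxBS. Directions of the 25 differing pairs were kept in 25 of 25 when any replicate number, or the libraries with a median under 100 reads, were left out.

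**Figure D2:**
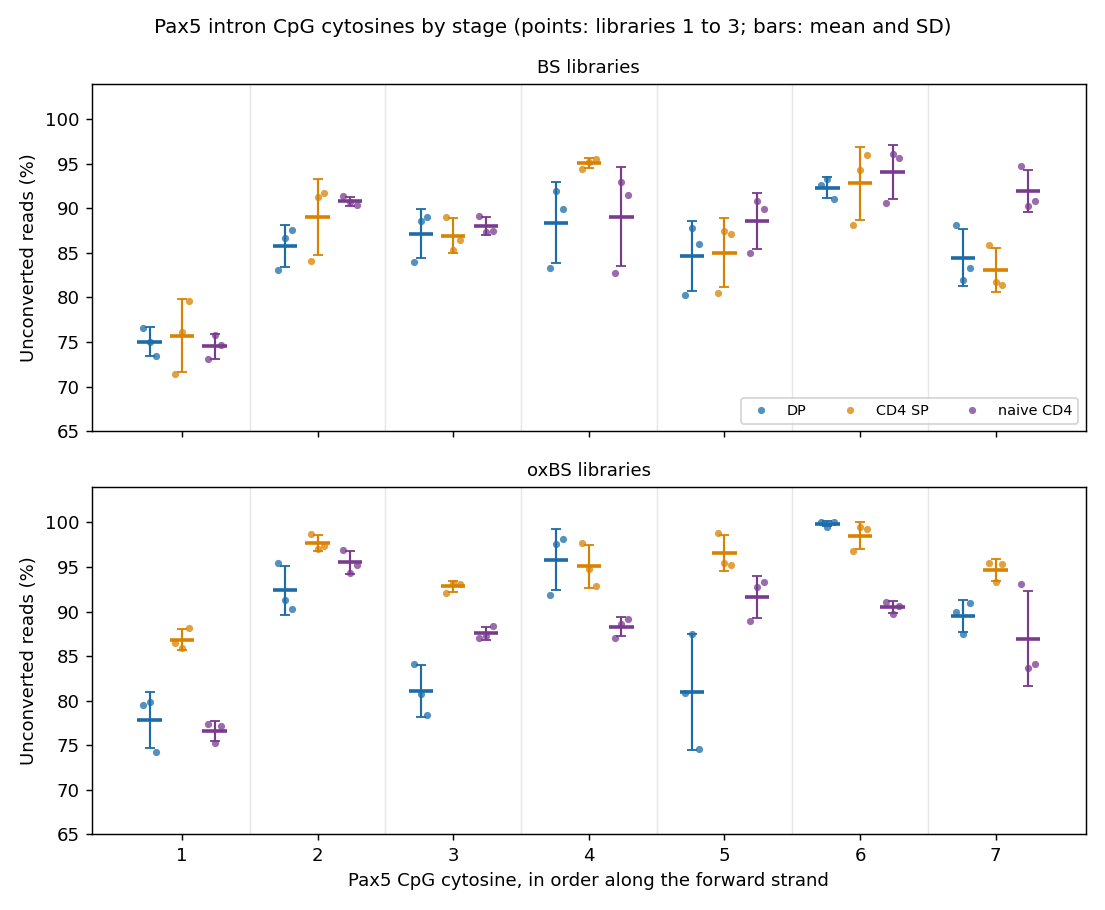
Unconverted reads (%) at the 7 members, CpG 1 to CpG 7 from left to right, in BS (top) and oxBS (bottom) libraries. Points are libraries 1 to 3 in that order within each stage and bars are the mean and SD, and CpG 1 lies lowest, at 71.4% to 79.6% in BS. The vertical axis starts at 65%.

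The total of both marks was compared between stages first. The mean BS share over the 7 members was 84.0%, 86.5% and 85.7% in DP thymocytes, 84.8%, 87.4% and 88.3% in CD4 SP thymocytes and 86.7%, 89.1% and 88.6% in naive CD4 cells, for libraries 1 to 3. The stages overlapped, with the lowest value in DP and the highest in naive CD4. Naive CD4 was 2.74 points above DP, against within-stage SDs of 1.27 and 1.31 points, and the test of a difference among stages was not passed (exact permutation F test over 9 libraries, two-sided, p = 0.171, adjusted over 12 locus tests 0.171). This call depended on the treatment of the library numbers. Within numbers 1, 2 and 3 naive CD4 was 2.67, 2.68 and 2.89 points above DP, and with the number as a replicate block the stages differed (exact permutation within numbers, p = 0.0278, the smallest this test can give). The deviations of same-numbered BS libraries of DP and naive CD4 correlated at 0.55, 0.80 and 0.14, while the labels do not say what a number shares across stages.

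Single members behaved likewise in BS. Across the series 90.6% of the 64 CpG cytosines differed among stages in BS share at an adjusted p under 0.05 (exact permutation F test). At Pax5 1 of 7 did, and the 57 cytosines at the other loci all did. The one was CpG 7, also with the replicate block, where 85.9% of all passed. Its BS share was 88.1%, 82.0% and 83.3% in DP thymocytes, 85.9%, 81.8% and 81.4% in CD4 SP thymocytes and 94.7%, 90.3% and 90.8% in naive CD4 cells. Every naive CD4 library was above every thymocyte library, and the stage mean was 7.47 points above DP and 8.90 points above CD4 SP (exact permutation, adjusted p = 0.0201). At CpG 4 the CD4 SP libraries, at 94.4%, 95.2% and 95.5%, lay above the other stages without overlap, but the test was not passed (exact permutation, adjusted p = 0.179). Library 1 was the lowest there in DP (83.3%, 90 reads) and naive CD4 (82.7%, 156 reads).

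The oxBS share, meant as a read-out of 5mC, gave another picture. In CD4 SP it averaged 94.6%, above the BS share of 86.8%, and in DP 88.2% against 85.4%. Because 5mC cannot exceed the total of both marks, the oxBS differences below are given as read shares and not as amounts of 5mC. The mean oxBS share over the 7 members was 88.8%, 89.1% and 86.6% in DP thymocytes, 95.1%, 94.2% and 94.5% in CD4 SP thymocytes and 88.8%, 87.4% and 88.3% in naive CD4 cells. All CD4 SP libraries lay above all others, while DP and naive CD4 overlapped. CD4 SP was 6.39 points above DP and 6.44 points above naive CD4, and the stages differed (exact permutation F test, p = 0.0321, adjusted 0.0386). Within numbers CD4 SP was 6.31, 5.02 and 7.85 points above DP, but with the replicate block the test among stages was not passed (exact permutation within numbers, p = 0.0833). With the agreeing CD4 SP pair counted once, the second difference was 6.58 points (exact permutation among stages, p = 0.0321). A test on 3 against 3 libraries cannot go below 0.10, so no pair of stages could pass by itself.

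The equal means of DP and naive CD4 covered members that differed in opposite directions. In the whole series 92.2% of CpG cytosines differed among stages in oxBS share, and at Pax5 4 of 7 did, namely CpG 1, CpG 3, CpG 5 and CpG 6. They fell into 3 patterns.

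CpG 3 and CpG 5 were lowest in DP, intermediate in naive CD4 and highest in CD4 SP. The oxBS share of CpG 3 was 84.1%, 80.8% and 78.3% in DP thymocytes, 92.1%, 93.3% and 93.1% in CD4 SP thymocytes and 87.0%, 87.2% and 88.4% in naive CD4 cells. No stages overlapped, and CD4 SP was 11.8 points and naive CD4 6.48 points above DP (exact permutation, adjusted p = 0.00571). CpG 5 had the widest difference of all members, 15.6 points between DP and CD4 SP and 10.7 points between DP and naive CD4 (exact permutation, adjusted p = 0.00571). Its oxBS share was 80.9%, 87.5% and 74.5% in DP thymocytes, 98.8%, 95.5% and 95.2% in CD4 SP thymocytes and 88.9%, 92.7% and 93.3% in naive CD4 cells. The DP libraries here are shallow, and the lowest of them had 55 reads with a Wilson 95% interval of 61.7% to 84.2%.

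CpG 6 was highest in DP and lowest in naive CD4. Its oxBS share was 100%, 99.5% and 100% in DP thymocytes, 96.7%, 99.5% and 99.3% in CD4 SP thymocytes and 91.1%, 89.8% and 90.6% in naive CD4 cells. In DP libraries 1 and 3, 0 of 49 and 0 of 55 reads were converted, which allows a converted share of up to 6.12% and 5.45%. The difference of naive CD4 was -9.35 points from DP and -8.02 points from CD4 SP (exact permutation, adjusted p = 0.00571). In naive CD4 the 3 Wilson intervals together ran from 86.8% to 94.1%, below the DP oxBS 2 interval of 97.2% to 99.9%.

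CpG 1 was highest in CD4 SP. Its oxBS share was 79.5%, 79.8% and 74.2% in DP thymocytes, 86.5%, 85.9% and 88.2% in CD4 SP thymocytes and 77.4%, 75.2% and 77.1% in naive CD4 cells. The CD4 SP libraries lay above all others, while DP and naive CD4 overlapped (exact permutation, adjusted p = 0.0259). CpG 2, CpG 4 and CpG 7 did not pass the test. For CpG 2 and CpG 4 the adjusted exact p was 0.0525, with stage means of 92.4%, 97.7% and 95.5% and of 95.8%, 95.1% and 88.3% in DP, CD4 SP and naive CD4. For CpG 7 the means were 89.4%, 94.7% and 87.0% (exact permutation, adjusted p = 0.0664), and naive CD4 oxBS 1 stood at 93.1% beside 83.7% and 84.2% in libraries 2 and 3. With the agreeing pair counted once 4 members passed as well, against 87.5% of all CpG cytosines. With the replicate block the count was also 4, against 71.9%, but CpG 1 no longer passed and CpG 2 did (exact permutation within numbers, adjusted p = 0.0952 and 0.0386).

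The estimate of 5hmC was mostly below 0. BS minus oxBS was taken within pairs of libraries of one number and averaged over the members. It was -4.83, -2.66 and -0.886 points in DP. In CD4 SP it was -10.3, -6.79 and -6.22 points, and in naive CD4 -2.13, 1.76 and 0.371 points. Thus 7 of 9 pairs were negative, and the mean was -3.52 ± 3.85 points (SD, n = 9; exact sign-flip test, p = 0.0273). An amount of 5hmC cannot be below 0, so in these libraries the difference does not measure that amount at Pax5. Where the difference is below 0, the BS and oxBS shares cannot both be the amounts of their marks. The p was 0.156 without the libraries under a median of 100 reads, where the mean was -2.61 points, and 0.0938 with the agreeing pairs counted once. The cause was not tested.

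The difference was not the same in every stage. It was -2.79 ± 1.97 in DP, -7.78 ± 2.22 in CD4 SP and 0.000998 ± 1.97 points in naive CD4 (SD, n = 3). The 3 CD4 SP pairs were below all others, naive CD4 was 7.78 points above CD4 SP, and the stages differed (exact permutation F test, p = 0.00714, adjusted 0.0107). The p was 0.0679 without CpG 7, where the difference was 6.30 points, and at most 0.0179 when any other single member was left out. It was 0.0381 with the agreeing pairs counted once. Pairing DP BS 2 with oxBS 1, which cover the same set of intervals, gave -2.36 points, and the same pairs gave -7.77 points in CD4 SP and 0.350 points in naive CD4.

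By member, the mean over 9 pairs was below 0 at 6 of 7 and 47 of all 63 values were negative. CpG 1 and CpG 2 passed a test against 0, with -5.34 ± 4.94 and -6.65 ± 4.00 points (SD, n = 9; exact sign-flip test, adjusted p = 0.0227 and 0.0147), negative in 8 and in 9 of 9 pairs. Over the series 3.12% of 64 CpG cytosines passed in that direction, which are these 2. Negative values were not particular to Pax5. Il6ra averaged -15.2 points in CD4 SP and -14.4 points in naive CD4, Prkcq averaged -7.09 points in naive CD4, and the stage mean was below 0 at 15 of the 57 other CpG cytosines in CD4 SP and at 34 in naive CD4. In DP it was below 0 at 1 of those 57 and at 5 of the 7 Pax5 members. At Il6ra and Prkcq the DP means were positive, at 20.6 and 24.5 points, so their 9 pairs did not share a sign. CpG 3 averaged 0.238 ± 6.08 points.

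**Figure D3:**
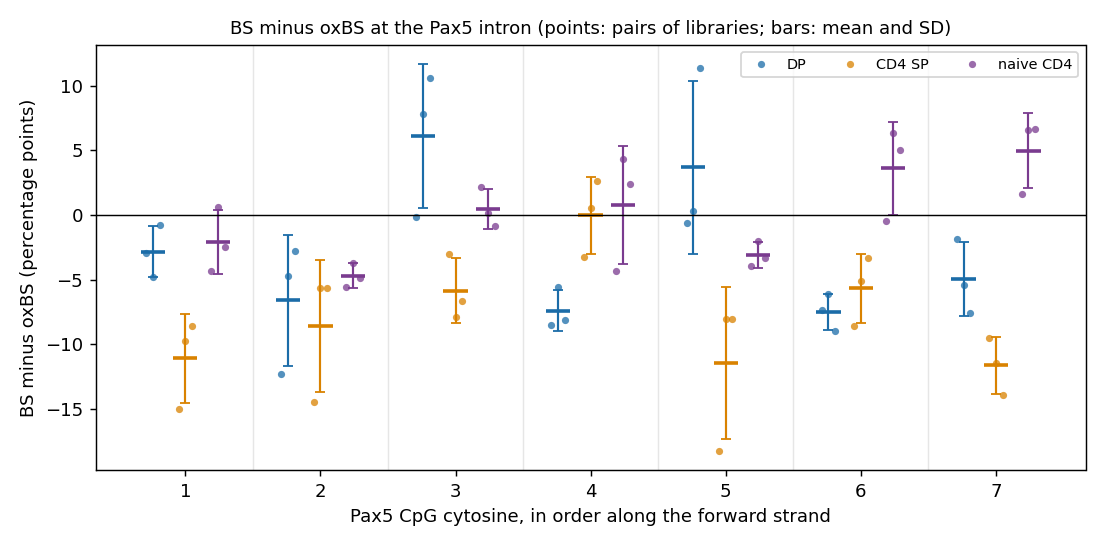
BS minus oxBS in percentage points at CpG 1 to CpG 7, with 1 point per pair of libraries of the same number and bars for the mean and SD by stage. All 9 values of CpG 2 lie below 0, and at CpG 7 the naive CD4 values (1.63 to 6.68 points) lie above 0 while both thymocyte stages lie below it.

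BS minus oxBS differed among stages at 5 of 7 members, against 90.6% of all CpG cytosines (exact permutation F test, adjusted p under 0.05), and at 2 of 7 with the agreeing pairs counted once, where 68.8% of all passed. With the replicate block it was again 2 of 7, against 59.4% of all. At CpG 7 it was -1.88, -5.46 and -7.58 points in DP thymocytes, -9.54, -11.5 and -13.9 in CD4 SP thymocytes and 1.63, 6.63 and 6.68 in naive CD4 cells. The stages did not overlap and their signs differed (exact permutation, adjusted p = 0.00737). CpG 5 also had no overlap between stages, with means of 3.69 in DP, -11.5 in CD4 SP and -3.08 points in naive CD4 (exact permutation, adjusted p = 0.00737). CpG 5 and CpG 7 are those that remained with the pairs counted once (adjusted exact p = 0.0185 and 0.0305). CpG 6 averaged -7.50, -5.68 and 3.63 points and CpG 3 6.11, -5.87 and 0.476 points in the order DP, CD4 SP and naive CD4 (exact permutation, adjusted p = 0.0203 and 0.0280). The means at CpG 1 were -2.84, -11.1 and -2.06 points (adjusted exact p = 0.0280).

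The hierarchical model of the study combines both assays and keeps the proportions of C, 5mC and 5hmC between 0 and 1. Estimated for each library from its read-count likelihood with a flat prior, and averaged over libraries and members, the proportions were 82.7% 5mC and 13.0% C in DP thymocytes, 90.0% and 8.82% in CD4 SP thymocytes and 87.3% and 9.97% in naive CD4 cells. The bounded 5hmC estimate averaged 4.37% in DP thymocytes, 1.15% in CD4 SP thymocytes and 2.76% in naive CD4 cells. It is positive by construction, also where BS minus oxBS is negative. Its order among stages was not that of BS minus oxBS, which was highest in naive CD4. Number for number, the DP oxBS libraries were the shallowest, and the part of depth in this order was not tested. The highest of these 5hmC estimates were 9.44% at CpG 3 and 7.59% at CpG 5, both in DP, and 5.87% at CpG 7 in naive CD4. The stage proportions of the hierarchical model were lower there, at 6.21%, 4.01% and 3.94%.

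A Bayes factor above 1 was the study's threshold for a difference between stages. For DP against naive CD4 39.1% of the 64 CpG cytosines passed it here, for DP against CD4 SP 25% and for CD4 SP against naive CD4 20.3%. At Pax5 0 of 7 members passed in any of these comparisons. Outside Prkcq and Il6ra the only pass was at the Zbtb7b cytosine 89184824, with a Bayes factor of 1.63 for DP against naive CD4. The mean BS share of Zbtb7b changed by -12.7 points between those stages, so the threshold was rarely reached there too. The highest Bayes factor at Pax5 was 0.0357, at CpG 3 between DP and naive CD4, and it stayed at or below 0.0673 under the 8 alternative settings tried. The exact permutation test found 1 of 7 members in BS and 4 of 7 in oxBS at an adjusted p under 0.05. Of all 64 CpG cytosines, 90.6% and 92.2% passed it.

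Pax5 moved differently from each of the other loci. Between DP and naive CD4 its BS share changed by 2.74 points, while that of Zbtb7b changed by -12.7, that of Prkcq by -54.4 and that of Il6ra by -82.0 points. In oxBS the change was -0.0497 points at Pax5 against -9.51 at Zbtb7b, -22.9 at Prkcq and -47.1 at Il6ra. The difference between Pax5 and another locus was taken in each library and compared among stages. It passed for all 3 loci in BS (exact permutation F test, adjusted p = 0.00536 over 9 tests for each) and in oxBS (adjusted exact p = 0.00536, and 0.0143 for Zbtb7b). The nearest locus was Zbtb7b, from which Pax5 moved apart by 14.6 to 16.2 points in BS and 7.32 to 12.2 points in oxBS over the 3 numbers.

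BS minus oxBS changed by 2.79 points between DP and naive CD4 at Pax5, against -3.17 at Zbtb7b, -31.6 at Prkcq and -35.0 at Il6ra. The gap between Pax5 and each of these loci differed among stages as well (exact permutation F test, adjusted p = 0.0121, 0.00536 and 0.0121). For Zbtb7b the gap changed by 5.96 points between DP and naive CD4 over both strands. With forward cytosines alone it changed by 2.54 points, and the test among stages was missed (exact permutation, adjusted p = 0.107). Pax5 was read on the forward strand only.

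**Figure D4:**
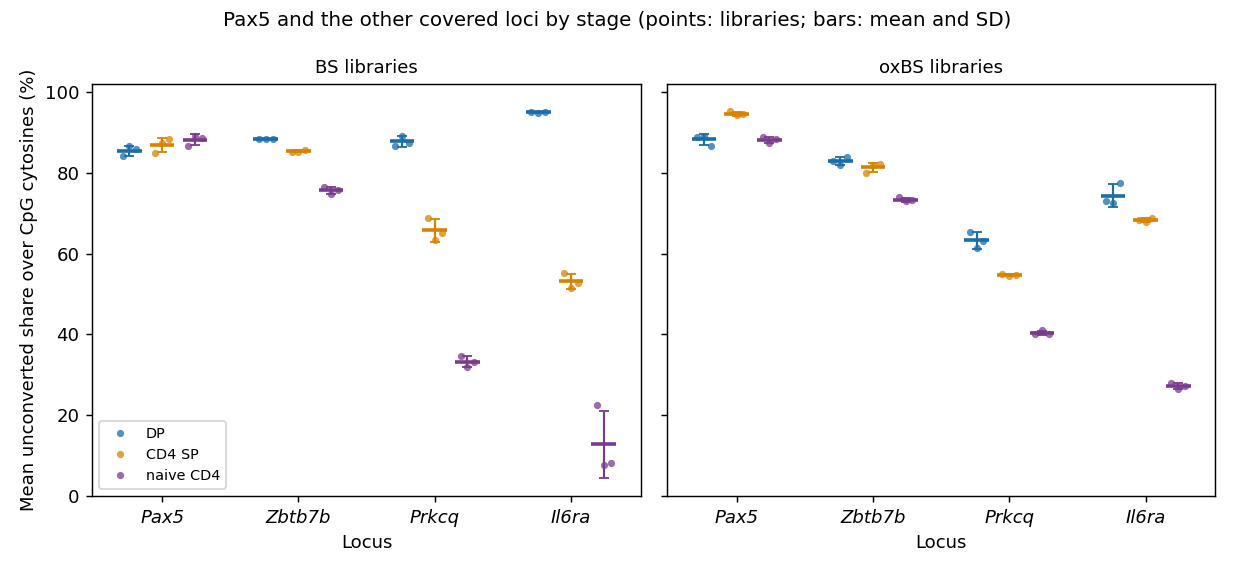
Mean unconverted share (%) over the CpG cytosines of Pax5 and the other loci in BS (left) and oxBS (right), with points for libraries and bars for the mean and SD by stage. In BS the Pax5 libraries lie between 84.0% and 89.1% in all stages, while the naive CD4 libraries of the other loci lie below their thymocyte libraries.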

How the data were processed

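BS-seq and oxBS-seq of PCR-amplified regions were analysed in 18 libraries, in 6 groups of 3 by stage and assay from the labels. The authors removed adapters, aligned read pairs with Bismark 0.7.12 and Bowtie 2 to mm9 and lambda, and extracted every cytosine context without double counting overlapping mates. The deposited files give, per cytosine, the authors' percent and the counts of reads that kept or lost the C, with a minimum of 10 reads. Depth sets the precision: Wilson 95% intervals and floors of 3 counts were computed from the deposited counts.

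Positions were made 1-based and compared with NCBIM37, the same build as mm9, and annotated with GENCODE vM1. The members and the motifs were chosen with earlier results of these data known. All 7 members are named. Locus shares are means over CpG cytosines with equal weight. Stages were compared with exact permutation F tests (1680 arrangements, smallest p 0.00357) and differences with exact sign-flip tests (512 arrangements). An F test covers all stages at once, so a p printed beside a difference between stages belongs to the test among stages. Where 1 stage alone differs, p can come no lower than the order of the other stages allows. On simulated data with 24 of 64 sites changed, 24 of 24 were called with a step at every stage. With a change in 1 stage 0 of 24 were called, although all 24 had an unadjusted p under 0.05. Detection of a difference as small as the 2.74 points in mean BS share between DP and naive CD4 at Pax5 was not tested. In the data 90.6% to 92.2% of the 64 cytosines passed, so the adjustment was milder than in the simulation. CpG 7 in BS was called with naive CD4 alone apart. P-values were adjusted by Benjamini-Hochberg over 64 cytosines, 12 locus tests, 9 tests against other loci or 42 pairs of members. Because most of the 64 cytosines passed, this changed p little at Pax5. With and without it 1 member was called in BS, 4 in oxBS and 5 in BS minus oxBS. The Bayes factors follow the study's model (Dirichlet prior 0.8, gamma prior on the spread), computed by numerical integration with conversion from the lambda controls and an oxidation efficiency of 0.9, where the study sampled these jointly. Tools were Python 3.11.15, NumPy 2.4.6, SciPy 1.17.1 and pandas 2.3.3. Alternatives were other read weighting, depth minimums, conversion correction, replicate block, left-out replicates and model settings. Lambda intervals other than the controls and regions not covered in every library were not used.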

Additional observations from a re-analysis of the deposited data

Results flagged for a closer look

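The values below were picked out because the BS minus oxBS difference at Pax5 varied with stage. Over the 7 members, naive CD4 was 7.78 points above CD4 SP (exact permutation F test among stages, adjusted p = 0.0107). At CpG 7 naive CD4 was 16.6 points above CD4 SP, at CpG 6 it was 11.1 points above DP and at CpG 1 it was 9.06 points above CD4 SP. The difference between CD4 SP and DP was -15.2 points at CpG 5 and -12.0 points at CpG 3. The adjusted exact permutation p was 0.00737 for CpG 5 and CpG 7, 0.0203 for CpG 6 and 0.0280 for CpG 1 and CpG 3. Of all 64 CpG cytosines 90.6% passed that test. With the replicate block, and also with the agreeing pairs counted once, only CpG 5 and CpG 7 of these members still passed. In each of the 5 members the stage that was lowest had a negative mean, and the part of depth, amplification or oxidation in this was not tested. The median depth of the oxBS libraries was 47 to 203 reads in DP, 86 to 587 in CD4 SP and 231 to 1444 in naive CD4.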

How the results depend on the processing

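The replicate block changed calls. With it the BS test among stages, where naive CD4 was 2.74 points above DP, passed (exact permutation within numbers, p = 0.0278). The oxBS test among stages, where CD4 SP was 6.44 points above naive CD4, did not pass (exact permutation within numbers, p = 0.0833). The block left 2 members differing in BS minus oxBS, CpG 5 and CpG 7, against 59.4% of all CpG cytosines. The oxBS gap from Zbtb7b changed by 9.46 points between DP and naive CD4, and its test among stages missed the threshold (adjusted exact p = 0.0556). Of all CpG cytosines 85.9% passed with it in BS and 71.9% in oxBS. The counts at Pax5 stayed at 1 in BS and 4 in oxBS, with CpG 2 in place of CpG 1 in oxBS. Whether a number marks the same mice across stages is not stated, and deviations of same-numbered libraries correlated above 0.1 in 8 of 9 comparisons between stages in BS, 3 of 9 in oxBS and 6 of 9 between assays. Of the BS libraries, 6 of 9 correlated best with the oxBS library of their own number. BS minus oxBS against 0 averaged -2.61 points without libraries under a median of 100 reads, -3.35 with agreeing pairs counted once and -4.16 to -2.41 without one replicate number, and its test was missed each time. The counting of agreeing pairs once left 2 members in BS minus oxBS (68.8% of all). Leaving out CpG 7 gave 6.30 points between naive CD4 and CD4 SP (exact permutation among stages, p = 0.0679). Fisher's exact test on pooled reads, DP against naive CD4, called 4 members in BS (95.3% of all). The forward strand alone gave 2.54 points from Zbtb7b in BS minus oxBS. Between members, 0 pairs passed without the shallow libraries and 0 to 0 without one replicate number, where 6 libraries allow no p under 0.0312. The cause of the other changes was not tested. Counting pairs once and leaving out or splitting members were chosen after seeing the data. Leaving out a replicate kept the direction of each locus result, but with 2 libraries per stage the exact permutation p cannot go below 0.0667, so single members were not tested that way, nor in BS 2 with oxBS 1, which leaves 1 pair per stage. Depth limits DP most: its oxBS medians were 47, 203 and 55 reads.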
